A study of Mus musculus with 6 samples.

Results

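Fkbp5, Errfi1 and Sgk1 are genes that glucocorticoid hormones are known to induce in many tissues. They were chosen by gene symbol, with their log2 signals in these hearts already known, from the 494 mouse genes that had values and a single symbol. All 3 genes had values, each from 1 probe set. Whole hearts of 6 mice were measured, 1 Affymetrix array per heart: 3 wild-type hearts and 3 hearts of mice with a knockout of Pgc1b (current symbol Ppargc1b), a coactivator of nuclear receptors. Both genotypes were on a mixed background of sv129 and C57BL/6, were fed ad libitum and received no treatment that the labels mention, and age and sex are not given in the sources used here. Each array value is a log2 signal, in which a difference of 1 is a doubling. Because the members and the contrast were known together, the values of these genes are given as a description, with no p-value.

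Glucocorticoids bind the glucocorticoid receptor, which waits in the cytoplasm in a complex with the chaperone Hsp90, moves to the nucleus on binding hormone and activates genes that carry its response elements. Fkbp5 encodes FKBP51, a co-chaperone in that complex that lowers the receptor's affinity for hormone and so acts as a negative feedback. Errfi1 encodes Mig6, an intracellular inhibitor of the EGF receptor family, and Sgk1 encodes a kinase, activated downstream of PI3-kinase, that regulates ion channels and transporters. Errfi1 and Sgk1 also respond to serum and growth factors, so they are not markers of glucocorticoids alone.

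The promoter windows of the 3 genes were searched for response elements. RefSeq windows of assembly GRCm38.p6, reaching from 250 bases before a transcript start to 50 bases after it, were held for all 3 genes: 1 window for Fkbp5, 2 for Errfi1 and 6 for Sgk1. The full glucocorticoid receptor palindrome, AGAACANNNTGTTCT, was in 3 of the 32851 windows of the table (0.00913%), and 1 of these was an Sgk1 window, where it began 189 bases before the start. The looser form GNACANNNTGTNC, which that same site also fills, was in 0.475% of windows. Of the 9 windows of the 3 genes, only this 1 held either form, so neither form was in a window of Fkbp5 or Errfi1. The element of oestrogen-related receptors, the partners of Pgc1b, TCAAGGTCA, was searched on both strands and was in 0.423% of windows, among them 2 of the Sgk1 windows. The cAMP response element TGACGTCA was in 1.79% of windows and in 1 of the Errfi1 windows, and the E-box CACGTG was in 7.15% of windows, among them the Fkbp5 window and the Sgk1 window with the palindrome. No motif was in windows of all 3 genes, and bases outside the windows were not searched. The motifs were picked with the sequences in view, and the 6 Sgk1 windows give Sgk1 more chances than the other genes. A match is a run of letters, not a measured binding site. The stretches below, all of bases before a start and written 5′ to 3′ on the strand of the gene, show in capitals the palindrome of Sgk1 (chr10:21993661-21993760, plus strand), the oestrogen-related receptor element of Sgk1 on its own strand (chr10:21985960-21986059, plus strand) and on the opposite strand (chr10:21978569-21978668, plus strand), and the cAMP element of Errfi1 (chr4:150854970-150855069, plus strand).
Sgk1 palindrome: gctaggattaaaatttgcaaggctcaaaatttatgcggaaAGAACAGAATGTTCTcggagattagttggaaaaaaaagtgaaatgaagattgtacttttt
Sgk1 receptor element, own strand: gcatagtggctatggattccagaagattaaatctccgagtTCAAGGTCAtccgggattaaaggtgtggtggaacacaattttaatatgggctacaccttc
Sgk1 receptor element, opposite strand: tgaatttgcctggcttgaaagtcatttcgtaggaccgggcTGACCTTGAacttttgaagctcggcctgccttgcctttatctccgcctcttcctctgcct
Errfi1 cAMP element: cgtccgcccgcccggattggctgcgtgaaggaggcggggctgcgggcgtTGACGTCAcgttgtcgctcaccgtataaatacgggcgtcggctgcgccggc

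Fkbp5 (probe set 1416125_at, chromosome 17, 28398753 to 28486149 in GRCm38.p6) had the widest range of the 3 genes. Its log2 signal was 5.69, 6.14 and 6.40 in wild-type replicates 1, 2 and 3, and 6.16, 8.18 and 6.71 in knockout replicates 1, 2 and 3. Knockout replicate 2 stood far above every other heart, at 3.41 times the signal of the highest wild-type heart, while knockout replicate 3 stood at 1.24 times that heart and knockout replicate 1 lay inside the wild-type range. The groups overlapped. The mean of the wild-type hearts was 6.08 ± 0.36 and that of the knockout hearts 7.02 ± 1.04 (SD, n = 3), with a difference of 0.94 and a limma standard error of 0.47. Limma draws the variance of each gene toward that of the other genes. For all 3 genes its standard error is therefore smaller than the SDs alone would give. Without knockout replicate 2 the difference was 0.36. Most of the mean difference of this gene therefore lay in 1 heart.

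Errfi1 (probe set 1416129_at, chromosome 4, 150853796 to 150868889) read 6.90, 7.16 and 7.27 in wild-type replicates 1 to 3, and 7.31, 7.92 and 7.92 in knockout replicates 1 to 3. Knockout replicates 2 and 3 were level with each other, both 1.58 times the highest wild-type heart. Knockout replicate 1 was above the highest wild-type heart by only 0.04, so the groups did not overlap, but by a narrow margin. Of the 494 genes, 47 had every knockout heart above every wild-type heart (9.51%), and of the 3 genes described here only Errfi1 did. Its means were 7.11 ± 0.19 and 7.72 ± 0.35 (SD, n = 3), a difference of 0.61 with a limma standard error of 0.18, or a knockout signal of 152.6% of wild type.

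Sgk1 (probe set 1416041_at, chromosome 10, 21882184 to 21999903) had the smallest range and the tightest wild-type group. It read 8.513, 8.603 and 8.553 in wild-type replicates 1 to 3, and 8.504, 8.976 and 9.001 in knockout replicates 1 to 3. Knockout replicates 2 and 3 again stood together, at 1.30 and 1.32 times the highest wild-type heart, whereas knockout replicate 1 was the lowest of all 6 hearts. The groups overlapped for that reason. The means were 8.56 ± 0.05 and 8.83 ± 0.28 (SD, n = 3), and the difference was 0.27 with a limma standard error of 0.13. Without knockout replicate 1 it was 0.43, the highest value when each heart was left out. In a whole heart, more RNA per cell and more cells that express a gene cannot be told apart, which holds for all 3 genes.

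**Figure D1:**
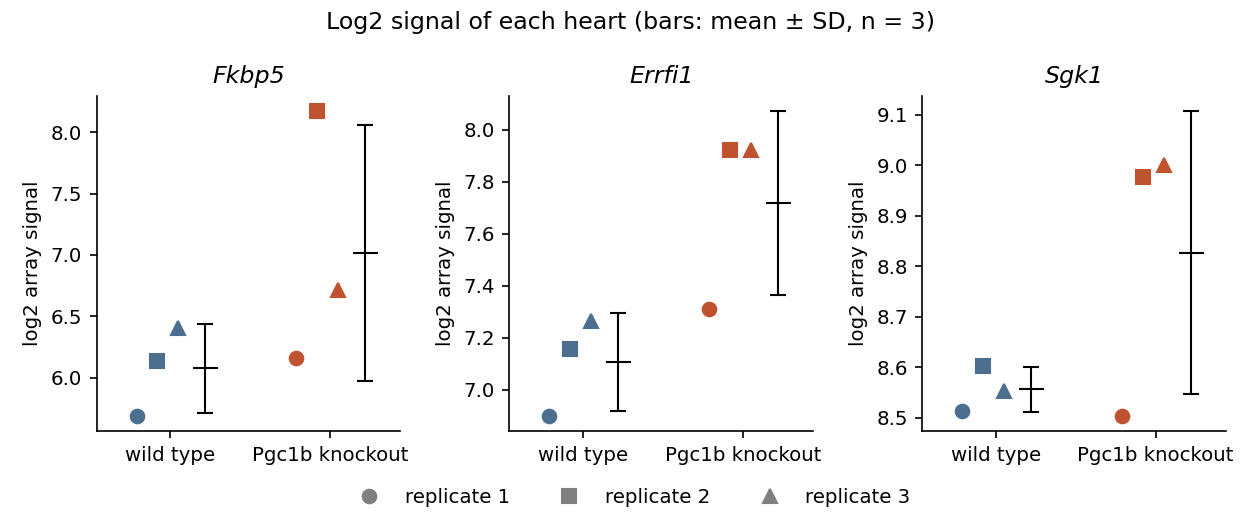
Log2 array signal of Fkbp5, Errfi1 and Sgk1 in each of the 3 wild-type (blue) and 3 Pgc1b knockout hearts (red), with symbols for the replicate number and bars for mean ± SD (n = 3); the vertical axes differ between panels. Knockout replicates 2 (square) and 3 (triangle) are the highest hearts in every panel, and knockout replicate 1 (circle) lies near the wild-type hearts.

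All 3 genes were highest in the same hearts. Knockout replicates 2 and 3 were the 2 highest of the 6 hearts for each gene, and the next heart was lower than both by 0.31 for Fkbp5, 0.61 for Errfi1 and 0.37 for Sgk1. The same pair was highest in 77 of the 494 genes (15.6%), so this order was not rare among the measured genes. When each array was centred on its median, 33 genes (6.68%) showed it. When the deposited values were quantile normalized instead, 39 genes (7.89%) did. Fkbp5, Errfi1 and Sgk1 were among them in each case. The median signal over all genes was 7.79 and 7.78 on the arrays of knockout replicates 2 and 3 and 7.70 to 7.74 on the other 4.

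The genes differed in how the 2 highest hearts compared with each other. Fkbp5 was 2.76 times as high in knockout replicate 2 as in knockout replicate 3, while Errfi1 and Sgk1 differed between these hearts by 0.00 and 0.02 on the log2 scale. Among the other 4 hearts the order was shared less closely. Wild-type replicate 1 was lowest for Fkbp5 and Errfi1, and knockout replicate 1 was lowest for Sgk1.

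As a description over the 6 hearts, Pearson's r was 0.84 for Fkbp5 with Errfi1, 0.79 for Fkbp5 with Sgk1 and 0.94 for Errfi1 with Sgk1. Spearman's rho was 0.89, 0.66 and 0.60. The deviations from the genotype means gave r of 0.75, 0.66 and 0.92. In each gene the knockout hearts had the wider range, so they weigh most in these values. Among wild-type hearts Fkbp5 and Errfi1 were highest in replicate 3, whereas Sgk1 was highest in replicate 2. The wild-type values of Sgk1 spanned only 0.09, however, and after quantile normalization replicate 1 was its highest wild-type heart. The hearts share the handling of their arrays. In Errfi1 and Sgk1 they form a pair and a group of 4. In Fkbp5 knockout replicate 2 (8.18) stands alone, and knockout replicate 3 (6.71) lies nearer to wild-type replicate 3 (6.40). Each relation therefore rests on few points. Without knockout replicates 2 and 3, the remaining 4 hearts gave r of 0.90 for Fkbp5 with Errfi1, 0.38 for Fkbp5 with Sgk1 and 0.12 for Errfi1 with Sgk1. The relation of Sgk1 to Errfi1 thus rested on the pair of high hearts. That of Sgk1 to Fkbp5 rested largely on them too, with a Spearman's rho of 0 in the remaining 4 hearts. Without the hearts farthest from the median of Fkbp5, which were knockout replicate 2 and wild-type replicate 1, Fkbp5 had r of 0.90 with Errfi1 and 0.87 with Sgk1. Knockout replicate 3 was still included there, and Spearman's rho was 0.80 and 0.40.

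**Figure D2:**
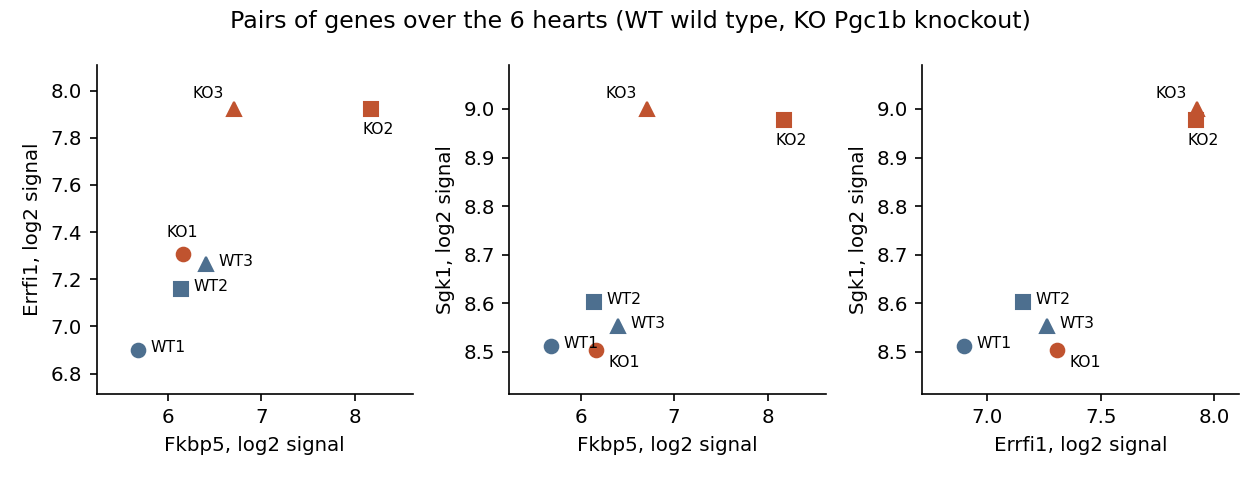
Log2 signal of each pair of genes over the 6 hearts, 1 point per heart, with wild-type hearts in blue (WT) and Pgc1b knockout hearts in red (KO). KO2 and KO3 stand apart in every panel, and in the panel of Sgk1 against Errfi1 the other 4 hearts show little relation (r of 0.12).

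The spread within genotype was wide for Fkbp5 and less so for the others. The SD pooled over the genotypes was 0.78 for Fkbp5, 6.79 times the median of all genes (0.115) and second only to the 0.78 of Btg2, an early response gene. It was 0.28 for Errfi1, which ranked 25, and 0.20 for Sgk1, which ranked 68 of 494. In each gene the knockout hearts varied more than the wild-type hearts, with ranges of 2.01 against 0.72 for Fkbp5, 0.61 against 0.37 for Errfi1 and 0.50 against 0.09 for Sgk1. Left out alone, knockout replicate 2 brought the pooled SD of Fkbp5 to 0.37, and knockout replicate 1 brought those of Errfi1 and Sgk1 to 0.15 and 0.038. In the order of knockout minus wild-type differences, from the most positive, Fkbp5 was first, Errfi1 number 3 and Sgk1 number 23 of 494 genes.

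**Figure D3:**
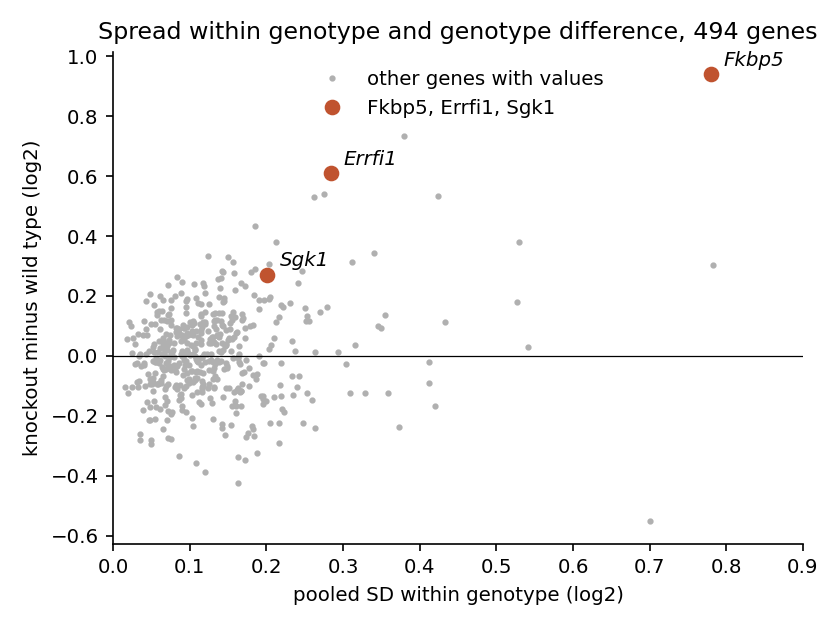
Knockout minus wild-type difference (vertical, log2) against the pooled SD within genotype (horizontal, log2) for the 494 genes with values, 1 point per gene, with Fkbp5, Errfi1 and Sgk1 in red. Fkbp5 has the most positive difference (0.94) and nearly the widest spread (0.78), Errfi1 has a difference of 0.61, and Sgk1 lies inside the upper part of the cloud.

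Measures of array handling also differed between the hearts. The mean of the hybridisation spikes, RNAs added to every sample in a fixed amount, was 10.15, 9.84 and 9.69 on wild-type arrays 1 to 3 and 9.55, 9.68 and 9.32 on knockout arrays 1 to 3. Every knockout array was below every wild-type array, with only a narrow margin between knockout replicate 2 and wild-type replicate 3. Knockout replicate 3 had the lowest value. The poly-A spikes, which follow RNA through labelling, ran from 6.49 in knockout replicate 3 to 7.61 in knockout replicate 1, with 7.32 in knockout replicate 2. The 3′ minus 5′ signal of Actb, a measure of RNA integrity, was 0.51 in knockout replicate 3 and 0.63 to 0.77 in the other hearts. With the hybridisation spike mean as a covariate the differences were 1.05 for Fkbp5, 0.38 for Errfi1 and 0.20 for Sgk1, so that of Errfi1 was smaller by more than 1.5 times. Because the spike mean was lower on every knockout array, this covariate overlaps with genotype, and their parts cannot be fully told apart. The 3′ minus 5′ signal of Gapdh was -0.02, 0.14 and 0.12 in wild-type and 0.20, -0.0044 and 0.033 in knockout replicates 1 to 3. Neither the spikes nor these 3′ minus 5′ signals had knockout replicates 2 and 3 together above or below the other 4 hearts, whereas the median signal over all genes, given above, was highest on those arrays. The part of array handling in the pattern was not tested.

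Most other genes of the glucocorticoid response were not analysed here. Of a list of 47 genes that glucocorticoids induce, the 3 genes described above were the only ones with values. Tsc22d3, Per1, Zbtb16 and Klf9, which would bear on the same response, the receptor gene Nr3c1 and all 17 genes of a list of the circadian clock were not analysed here. Of related lists, 13 other genes had values: 2 that glucocorticoids repress, 3 receptor chaperones, 2 FKBP proteins, 2 genes of the pathway that activates Sgk1 and 4 early response genes. Among these 13, 7 had a higher and 6 a lower mean in knockout hearts, the median difference was 0.01 as over all 494 genes, and none passed in limma (adjusted p from 0.465 to 0.984 over all genes, 0 with an unadjusted p under 0.05). Over all genes limma also called none (0% of 494), and 57 had an unadjusted p under 0.05.

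Among the chaperones, Dnaja1, an Hsp40 co-chaperone that works with Hsp70 in loading the receptor, had the pattern most like the 3 genes. It read 8.69, 9.07 and 8.79 in wild-type and 8.77, 9.48 and 9.90 in knockout replicates 1 to 3. Knockout replicates 2 and 3 were the highest hearts here as well, and knockout replicate 1 lay inside the wild-type range. The difference was 0.53 (95% interval -0.08 to 1.14, adjusted p = 0.465 in limma, 0.164 to 0.849 over the alternatives), with a higher signal in 2 of 3 knockout hearts than in any wild-type heart. It was 0.27 without knockout replicate 3, 0.84 without knockout replicate 1 and 0.22 with the hybridisation spike covariate. Hspa4, a co-chaperone of the Hsp70 family, differed by 0.14 (interval -0.10 to 0.39) and also had knockout replicates 2 and 3 highest, although its dimmer probe set differed by -0.03. Stip1, which links Hsp70 to Hsp90, differed by 0.06 (interval -0.17 to 0.29).

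The 2 other FKBP genes with values, of a list of 15, were not at their highest in knockout replicate 2, where Fkbp5 was. Fkbp1a, which binds the calcium release channel, ran from 9.72 to 10.01 in wild-type and from 9.82 to 9.91 in knockout hearts, a difference of -0.03 (interval -0.24 to 0.18). Fkbp8, whose protein is anchored in the mitochondrial membrane, had its lowest value, 8.22, in that heart and differed by -0.14 (interval -0.37 to 0.08). Neither passed the test. Pdpk1, the kinase that activates Sgk1, ran from 7.08 to 7.30 over the 6 hearts and differed by -0.04 (interval -0.22 to 0.15), and Mlst8, a subunit of the mTOR complexes, differed by 0.01 (interval -0.26 to 0.28).

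The 4 early response genes with values, of a list of 30, had patterns of their own. Btg2, an antiproliferative gene, read 8.26, 6.997 and 7.74 in wild-type and 6.96, 8.25 and 8.71 in knockout replicates 1 to 3, so wild-type replicate 1 was as high as knockout replicate 2. Its difference was 0.30 (interval -0.80 to 1.41) and became -0.06 without knockout replicate 3 and -0.03 without wild-type replicate 2. Ccn1, a matrix protein gene induced by serum, was highest in knockout replicate 2 at 8.24 and next in wild-type replicate 1 at 8.08. Dusp6, a phosphatase that feeds back on ERK, was highest in knockout replicate 3 at 6.74 and stood at 5.96 in knockout replicate 2. Junb ran from 5.82 to 6.20 with wild-type replicate 1 highest. None of these 4 genes had knockout replicates 2 and 3 as its 2 highest hearts.

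Of the 12 genes of the repressed list, 10 were not analysed here. The 2 with values had lower means in knockout hearts without passing the test. Mmp9, a matrix protease, read 5.08, 4.87 and 4.78 in wild-type and 5.04, 4.63 and 4.66 in knockout replicates 1 to 3, with knockout replicates 2 and 3 lowest. Its difference was -0.13 (interval -0.44 to 0.17), and 0.03 with the hybridisation spike covariate. Vcam1, an adhesion molecule of activated endothelium, read 6.72, 6.94 and 7.12 in wild-type and 6.47, 6.81 and 6.94 in knockout replicates 1 to 3. Knockout replicate 1 was its lowest heart and knockout replicate 3 its second highest. The difference was -0.19 (interval -0.53 to 0.15), -0.05 without knockout replicate 1, -0.29 without knockout replicate 3 and -0.47 with the hybridisation spike covariate.

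The genes whose pattern over the 6 hearts was most like that of the 3 genes were picked from the 491 others by Pearson's r, so their r is a description. Closest to the mean of the 3 genes were Smoc2, a secreted matrix protein gene (r of 0.96), Anxa6, a calcium-dependent membrane-binding protein gene (0.96), and Cct2, a subunit of the chaperonin that folds actin and tubulin (0.94). Smoc2 read 7.72 to 7.77 in wild-type and 7.82, 8.10 and 8.02 in knockout replicates 1 to 3. Closest to Fkbp5 were Anxa6 (1.00), Wdr45b (0.97) and the ubiquitin ligase gene Itch (0.96), but the range of Anxa6 over the 6 hearts was 0.10 against 2.49 for Fkbp5. Closest to Errfi1 were the translation factor gene Eif3d (0.97), Smoc2 (0.96) and the ribosomal protein gene Rpl35 (0.96). Closest to Sgk1 were Lbr, the lamin B receptor gene (0.97), Wars, a tRNA synthetase gene (0.96), and Aqp1, a water channel gene of endothelium (0.96). Aqp1 was the 1 gene of these with a wider range than the gene it resembled, 0.66 against 0.50, and it read 10.77 to 10.95 in wild-type and 10.78, 11.24 and 11.43 in knockout replicates 1 to 3.

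**Figure D4:**
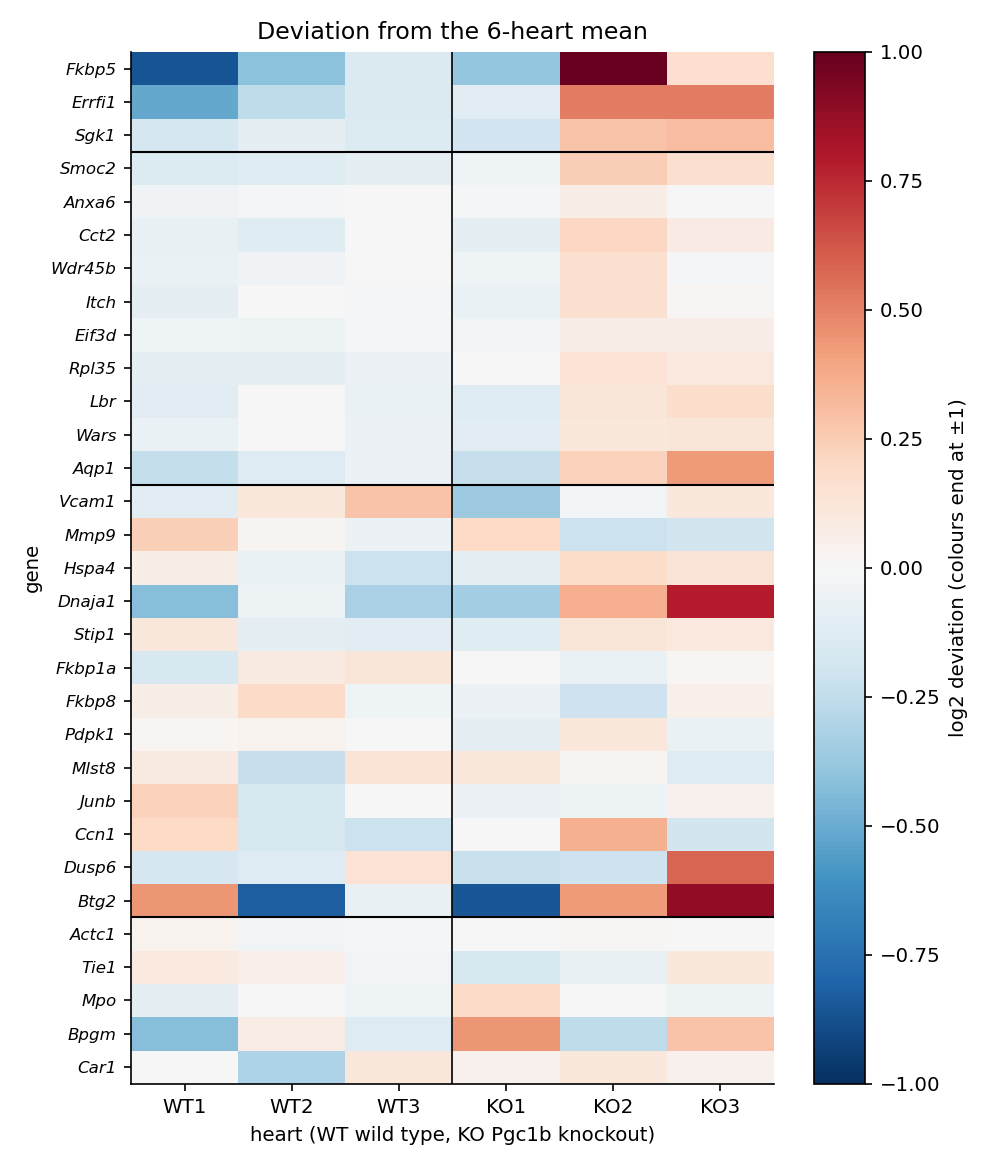
Deviation of each log2 signal from the 6-heart mean of its gene (colour; red higher, blue lower, colours end at ±1) for the 3 wild-type (WT) and 3 Pgc1b knockout (KO) hearts. From the top, separated by lines, are the 3 genes, the 10 genes with the most similar pattern, the 13 genes of related lists and 5 cell type markers. The 10 similar genes were picked for this pattern. KO2 and KO3 are the highest hearts in 2 of the 13 list genes and 0 of the 5 markers, against 15.6% of all genes. These counts are too small to be set apart from that share.

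Few markers of the cell make-up had values. Actc1, the actin of heart muscle, ran from 14.09 to 14.15 over the 6 hearts, and the other 12 genes of the heart muscle list were not analysed here. The endothelial receptor Tie1 ran from 7.48 to 7.74, the neutrophil gene Mpo from 3.45 to 3.74, and the red cell genes Bpgm and Car1 from 7.20 to 8.06 and from 3.68 to 4.10. Mpo and Car1 were dim, with the lowest value on the arrays at 2.56. Of these 5 markers, 4 had a higher and 1 a lower mean in knockout hearts. Bpgm differed by 0.31 (interval -0.14 to 0.77), and its dimmer probe set by 0.46. Knockout replicates 2 and 3 were the highest hearts in 0 of the 5, against 15.6% of all genes, and none passed in limma (adjusted p from 0.598 to 0.971, 0 with an unadjusted p under 0.05). With only 5 genes, a count of 0 is not far from that share. Fibroblast, smooth muscle, macrophage, lymphocyte, fat and skeletal muscle markers and the targeted gene were not analysed here, so neither the part of cell make-up in the pattern nor the genotype labels were tested.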

How the data were processed

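The authors deposited log2 signals, 1 column for each array. The submitters' processing notes name GCOS, Partek and RMA, without order or versions. Per the labels' protocols, 2 kits amplified the RNA in turn before hybridisation. Of 45101 rows 707 had values, of which 643 were probe sets for genes; blank rows were not analysed here. A platform annotation gave 597 of them a single symbol, and all matched RefSeq by gene ID, which left 494 genes, each by its brightest probe set. All columns were mapped (0 unmapped).

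Genotypes were tested with limma 3.58.1 (R 4.3.3; two-sided, Benjamini-Hochberg over 494 genes, no covariate, no filter), in a script tested on simulated data. The labels call the hearts biological replicates. The number of arrays limits the precision. Detection calls were not used here. The genes, lists and motifs were chosen with earlier results of these data known. Named genes were the 3 genes, the 3 most similar to each and to their mean by Pearson's r, and every list gene with values. Alternatives covered scaling, prior variance, array weights, a spike covariate (18 probe sets), probe sets, dim genes, each heart and a replicate block. RefSeq promoter windows were searched with exact letters; all 1668 overlapping pairs of opposite strand matched as reverse complements.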

Additional observations from a re-analysis of the deposited data

How the results depend on the processing

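The differences of Fkbp5, Errfi1 and Sgk1 kept their sign in every alternative run. When each heart was left out they ran from 0.36 to 1.37, from 0.51 to 0.81 and from 0.18 to 0.43, and with array weights they were 1.11, 0.69 and 0.33. The pooled SD ran from 0.37 to 0.90, from 0.15 to 0.33 and from 0.038 to 0.23 when each heart was left out. The r of Fkbp5 with Errfi1, of Fkbp5 with Sgk1 and of Errfi1 with Sgk1 ran from 0.78 to 0.98, from 0.75 to 0.96 and from 0.90 to 0.97 when each heart was left out. The r of Errfi1 with Sgk1 was 0.84 after quantile normalization and 0.12 without knockout replicates 2 and 3, the hearts farthest from the median of Errfi1, and that of Fkbp5 with Sgk1 was 0.38 without those hearts and 0.87 without the hearts farthest from the median of Fkbp5. Leaving out hearts together, and the SD without each heart, were added after seeing the data. Limma called 0 genes in the alternatives other than a prior variance that follows expression, which called 1 gene, not one named here, and 0 when each heart was left out. The cause was not tested.

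Replicate numbers 1 to 3 occur in both genotypes, and no label says that they mark paired hearts. Deviations of same-numbered hearts from their genotype means correlated over genes at -0.15, -0.08 and 0.18, so the numbers were not taken as pairs. With the replicate block the differences were 0.94, 0.61 and 0.27, and limma called 0 genes.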
